A study of Mus musculus with 2 samples.

Results

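Mir126a, Mir221, Mir222, Mir218-1 and Mir218-2 are 5 microRNA genes known from blood vessels and from the Slit genes of axon and vessel guidance. They were chosen by name, as Ensembl genes of the mouse annotation, out of 1973 microRNA genes in the deposited tables, and all 5 were in those tables. The samples were whole lungs of healthy B6NCrl mouse embryos at embryonic day 15.5, male and female together, with no treatment and no altered allele named in the labels. There were 2 libraries of small RNA with inserts under 30 nt, and they formed 1 group: replicate 1 was a pool of 78 embryos and replicate 2 a pool of 62 embryos, and the labels give both the same donor identifier. With 1 group, the data give levels and the spread between 2 pools, and no comparison of conditions. Levels are in CPM, the reads on a gene's annotated strand per 1000000 such reads over all microRNA genes.

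A microRNA is cut from a hairpin precursor and, held by an Argonaute protein, pairs with target messenger RNAs mainly through its seed, bases 2 to 8 from its 5′ end. Mir126a is known from endothelial cells, where its product tunes growth factor signalling and vessel integrity, and its host gene Egfl7 encodes a protein secreted by endothelial cells. Mir221 and Mir222 are transcribed together and are known to act on the receptor Kit and the cell cycle inhibitor Cdkn1b in endothelium and smooth muscle. The Mir218 genes sit in Slit2 and Slit3, which encode secreted guidance ligands, and their product is known to act on Robo1, a receptor for those ligands.

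The mature sequences, credited to RefSeq on GRCm38.p6, are shown because the seeds group the 5 genes and because the identity of the Mir218 products bears on how their reads could be counted. Capitals mark the seed, and all 5 members were found in RefSeq by symbol. For Mir221 the product miR-221-5p is also listed there and is not printed. For Mir126a and Mir222 only the printed product was listed, so the sequences may not cover every product of these genes.
miR-126a-3p: uCGUACCGugaguaauaaugcg
miR-221-3p: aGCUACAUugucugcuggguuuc
miR-222-3p: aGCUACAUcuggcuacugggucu
miR-218-5p: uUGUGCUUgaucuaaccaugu
miR-218-1-3p: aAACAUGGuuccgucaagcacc
miR-218-2-3p: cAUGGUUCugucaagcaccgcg
The products miR-221-3p and miR-222-3p have the same seed, share their first 8 bases, and are identical at 11 of 23 positions counted from the 5′ end. The seed of miR-126a-3p was found in no other mature sequence of the RefSeq table. The product miR-218-5p is identical over its 21 bases at both loci, whereas the opposite arms, miR-218-1-3p and miR-218-2-3p, have different seeds and share a run of at most 10 bases. Other tabulated genes with these seeds were nearly without counts. Mir1928, with the miR-221 seed, had 0 counts in both libraries, and Mir7002, with the miR-218-5p seed, had 0 and 1. Mir496b, whose product has the seed of miR-218-1-3p, also had 0 in both. The tables count whole precursors, so the arms of a hairpin were not separated.

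The 2 Mir218 hairpins are shown to mark the run that both loci hold in common, in capitals.
Mir218-1: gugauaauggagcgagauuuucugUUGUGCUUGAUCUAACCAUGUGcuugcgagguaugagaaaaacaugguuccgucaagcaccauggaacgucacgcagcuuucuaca
Mir218-2: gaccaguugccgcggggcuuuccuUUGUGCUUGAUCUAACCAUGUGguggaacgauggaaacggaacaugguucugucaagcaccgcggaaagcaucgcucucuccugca
The common run is 22 bases long, begins at base 25 of both hairpins and holds the whole of miR-218-5p. A read within it can be placed at either locus. The tables list reads with several mapping places on a separate summary line, 3588198 in replicate 1 and 4144809 in replicate 2, and such reads are assumed to be left out of the gene counts. The counts of Mir218-1 and Mir218-2 are therefore uncertain, and how many reads of miR-218-5p stand on that line is not known. For the other members the longest run shared with any other RefSeq hairpin, on either strand, was 12 nt for Mir126a, 13 nt for Mir221 and 12 nt for Mir222, leaving aside Mir126b, which lies opposite Mir126a.

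The precursors lie at 4 loci of the mm10 assembly. Mir126a (ENSMUSG00000065540.1, chr2:26591357-26591429, plus strand) lies in Egfl7, 11343 bases from the start of the annotated gene. A second protein-coding gene on the same strand, Gm20532 (chr2:26586639-26635634), also spans it in the annotation. Of 19 annotated Egfl7 transcripts, 8 carry it in an intron, among them 7 protein-coding ones, and 1, a retained-intron transcript, carries it in a noncoding exon. The other 10 do not reach it. Mir126b (chr2:26591363-26591420, minus strand) is annotated opposite it and is not among the tabulated genes. Mir218-1 (ENSMUSG00000065603.1, chr5:48223942-48224051, plus strand) lies in introns of 7 of 23 Slit2 transcripts and in exons of none, 240804 bases into the gene. Mir218-2 (ENSMUSG00000065583.1, chr11:35616816-35616925, plus strand) lies in intron 14 of the protein-coding Slit3 transcript, 495592 bases into the gene. Mir221 (ENSMUSG00000065422.1, chrX:19146294-19146388) and Mir222 (ENSMUSG00000065471.1, chrX:19146893-19146971) lie on the minus strand with 504 bases between them. No other annotated gene lies within 10000 bp of either.

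**Figure D1:**
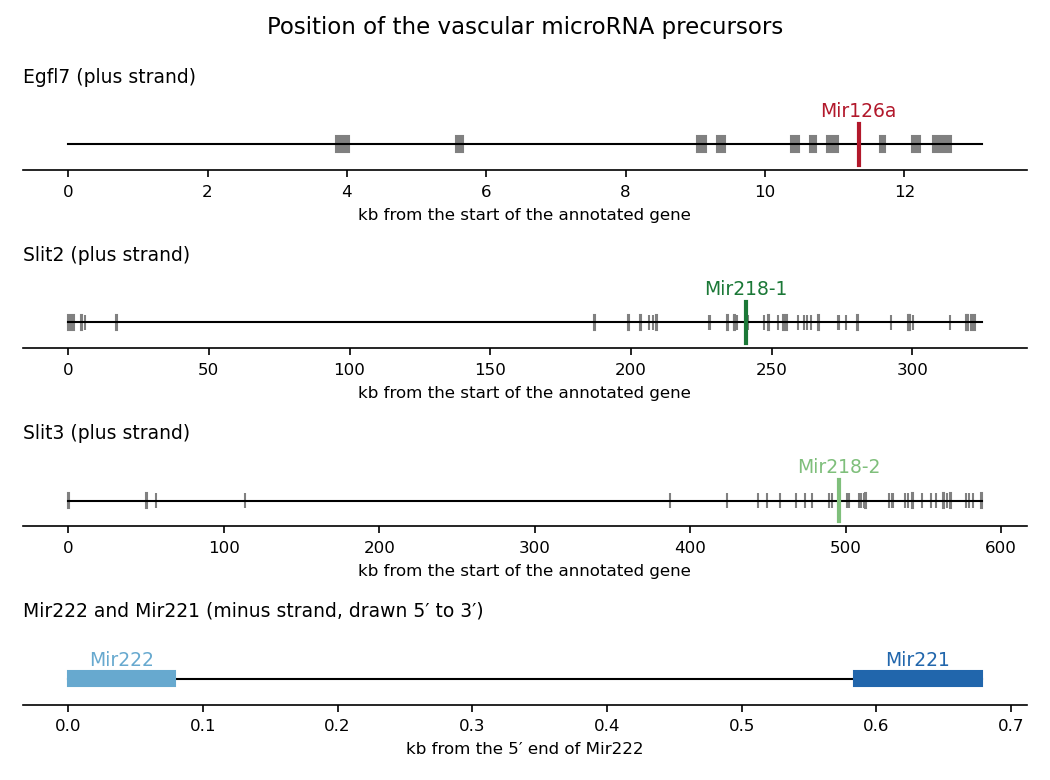
Map of the precursors to scale. The horizontal axes give kb from the start of the annotated host gene or, in the lowest panel, from the 5′ end of Mir222; grey boxes are exons of 1 protein-coding transcript per host, and coloured marks are the precursors. Mir126a, Mir218-1 and Mir218-2 fall between exons of their hosts, and Mir222 and Mir221 follow each other with 504 bases between them.

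By mean level of the counted reads, Mir126a was the third most abundant microRNA gene of the embryonic lung. Reads mapped to several places, 31.4% of reads in replicate 1 and 30.6% in replicate 2, are assumed to be left out. Genes with an identical copy elsewhere can therefore rank too low. Mir126a had 368958 counts in replicate 1 and 434794 in replicate 2. These were 68906 CPM and 67001 CPM, a mean of 67953 ± 1347 CPM (SD, n = 2). Both pools held it at nearly the same level, at rank 3 in replicate 1 and rank 4 in replicate 2. The genes next in mean level were Mir143, a microRNA of smooth muscle and mesenchyme, and Mir322 above it, and the let-7 genes Mirlet7g and Mirlet7i below it. The ranges of Mir322 and Mirlet7g over the libraries overlapped that of Mir126a, while those of Mir143 and Mirlet7i did not. Within each library Mir322 stood above Mir126a, by a log2 difference of 0.06 in replicate 1 and 0.04 in replicate 2 (mean 0.05, SD 0.0171), whereas Mirlet7g stood below it in replicate 1 and above it in replicate 2. The order of Mir126a and Mirlet7g therefore did not hold across the pools.

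Of the counted reads of the 5 members, Mir126a held 99.2% in replicate 1 and 99.3% in replicate 2. The members together took 6.94% of all counts in replicate 1 and 6.75% in replicate 2, a mean of 6.85% ± 0.138 (SD, n = 2). With all reads mapped to several places added to the total, and none credited to a member, the mean share was 4.14% and Mir126a stood at 41072 CPM. Whether those reads all came from microRNA genes is not known, so this share has a different base. The other 4 members together took 0.0523% and 0.0483% of the counts. Reads of miR-218-5p are assumed to be left out of these counts. The part of the Mir218 genes can therefore be too low, and that of Mir126a among the members too high. By the counted reads the set is in large part a measure of 1 gene, and its members are described one by one. The RNA came from whole lung, so more cells of a type and more microRNA per cell cannot be told apart, and the cells that held these microRNAs were not measured.

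Mir221 and Mir222, the clustered pair, stood at moderate levels. Mir221 had 1531 counts (286 CPM) in replicate 1 and 1726 counts (266 CPM) in replicate 2, a mean of 276 ± 14.1 CPM (SD, n = 2) and rank 143. Mir222 had 1040 counts (194 CPM) and 1155 counts (178 CPM), a mean of 186 ± 11.5 CPM (SD, n = 2) and rank 166. Mir221 was above Mir222 in both libraries and their ranges did not overlap. Both were lower in replicate 2 than in replicate 1.

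The ratio of Mir221 to Mir222 was nearly the same in both pools. It was 1.47 in replicate 1 (95% exact binomial interval 1.36 to 1.59) and 1.49 in replicate 2 (1.39 to 1.61), a log2 ratio of 0.57 ± 0.0153 (SD, n = 2). Among 109 pairs of neighbouring detected precursors on the same strand with gaps of at most 10000 bp, the median pair differed by 9.12-fold, and 9 pairs differed by less than the 1.48-fold of Mir221 and Mir222. These pairs share libraries and often sequence, so this is a description. Some pairs hold a numbered copy of a microRNA, whose reads can be left out of the counts. Such losses can enlarge the fold of a pair, and their part in the 9.12-fold median was not tested. With counts divided by precursor length, chosen after seeing the data, the log2 ratio was 0.30.

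**Figure D2:**
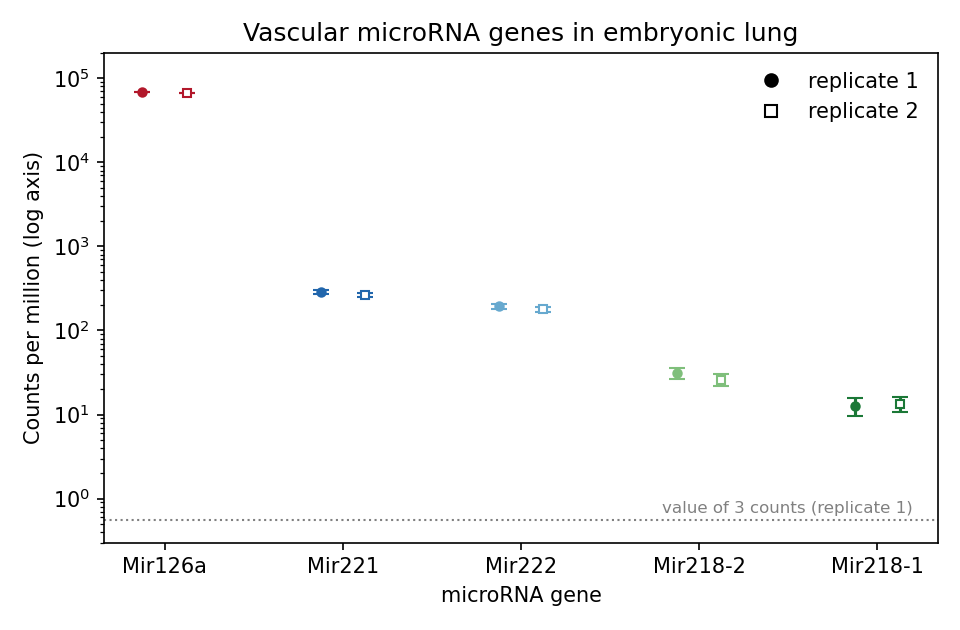
Level of each gene in each library. The vertical axis gives CPM on a log axis; filled circles are replicate 1, open squares replicate 2, bars the 95% exact binomial intervals, which cover counting error only, and the dotted line the value of 3 counts in replicate 1. The order Mir126a, Mir221, Mir222, Mir218-2, Mir218-1 held in both libraries, and the lowest value, 12.5 CPM of Mir218-1, stood above the dotted line at 0.560 CPM.

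Mir218-2 and Mir218-1 were the lowest of the 5 genes by the reads that could be counted. Mir218-2, in Slit3, had 165 counts (30.8 CPM) in replicate 1 and 168 counts (25.9 CPM) in replicate 2, a mean of 28.4 ± 3.48 CPM (SD, n = 2) and rank 244. Mir218-1, in Slit2, had 67 counts (12.5 CPM) and 86 counts (13.3 CPM), a mean of 12.9 ± 0.523 CPM (SD, n = 2) and rank 269. The copy in Slit3 was above the copy in Slit2 in both libraries and the ranges did not overlap. Mir218-2 exceeded Mir218-1 by 2.46-fold in replicate 1 (95% exact binomial interval 1.84 to 3.32) and by 1.95-fold in replicate 2 (1.50 to 2.56), a log2 ratio of 1.13 ± 0.236 (SD, n = 2). If reads of the common run were left out, as assumed, this ratio covers the other reads only and need not be that of the whole output of both loci.

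The Mir218 genes belong to a class of genes whose mature arm has an identical copy elsewhere. Of 916 tabulated genes with a mature sequence in RefSeq, 87 share an identical arm with another gene, and 44 of these (50.6%) were detected, that is, had at least 10 counts in both libraries. Of the 829 genes with no identical arm elsewhere, 280 (33.8%) were detected. The median mean level of the detected genes was 53.7 CPM with an identical arm and 187 CPM without, a description with no test. Within the 44, 15 genes had a lower mean than Mir218-2 and 10 a lower mean than Mir218-1. Both Mir218 genes thus stood in the lower part of a class whose counts can all miss reads of the shared arm.

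All 5 members were detected by that rule, beside 18.1% of all tabulated genes, of which 1261 had 0 counts in both libraries. Their median mean level was 186 CPM, and that of the 357 detected genes was 123 CPM. A single count equalled 0.187 CPM in replicate 1 and 0.154 CPM in replicate 2, so even Mir218-1 lay well over the value of 3 counts, 0.560 and 0.462 CPM. The libraries held 5354530 and 6489390 counts on annotated strands. The reads carry no recorded molecular identifiers, and the intervals and floors cover counting error only.

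The order of the 5 levels was the same in both libraries, and each step exceeded the SD of its log2 ratio. Mir126a exceeded Mir221 by 241-fold in replicate 1 and 252-fold in replicate 2, a log2 ratio of 7.94 ± 0.0452, and it exceeded the other 4 members together by a log2 ratio of 7.08 ± 0.0533 (SD, n = 2). Mir222 exceeded Mir218-2 by a log2 ratio of 2.72 ± 0.0886, and Mir221 plus Mir222 exceeded the 2 Mir218 genes by 3.49 ± 0.0237 (SD, n = 2). An exact two-sided permutation test gave p = 0.33 for each ratio, the smallest that 2 values against 2 allow. That test treats the libraries as unpaired. Exact sign flips of the ratios within libraries, added after seeing the data, gave p = 0.50 for each, also the smallest that 2 libraries allow, so neither exact test could pass 0.05. Of these ratios, all but that of Mir126a over Mir221 include the uncertain Mir218 counts. Sequence preferences of the library preparation that act alike on both pools are not part of this spread. Inserts under 30 nt hold a mature product and not a whole precursor, so counts were not divided by length. Divided by precursor length, the log2 ratio was 8.32 for Mir126a over Mir221 and 3.81 for the Mir221 pair over the Mir218 pair.

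Among genes studied in vessel growth in other work, the members span the range of the list. Of 24 such microRNAs listed, 23 were tabulated and all 23 were detected, beside 18.1% of all tabulated genes. Their median mean level was 2259 CPM, with a range from 12.7 to 70418 CPM, beside the median of 123 CPM over all detected genes. The lowest gene of the list is a numbered copy, whose counts can miss reads. Mir322 led the list and was the 1 gene of it above Mir126a. Mir10a, in the Hoxb cluster (32640 ± 884 CPM), Mir23b (27594 ± 266 CPM) and Mir17, of the Mir17 to Mir92 cluster (25936 ± 1310 CPM), came next (SD, n = 2). In this list 17 of the 23 genes stood above Mir221 and 3 stood below Mir222. The list was drawn up with earlier results of these data known, and its members are also expressed outside vessels.

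**Figure D3:**
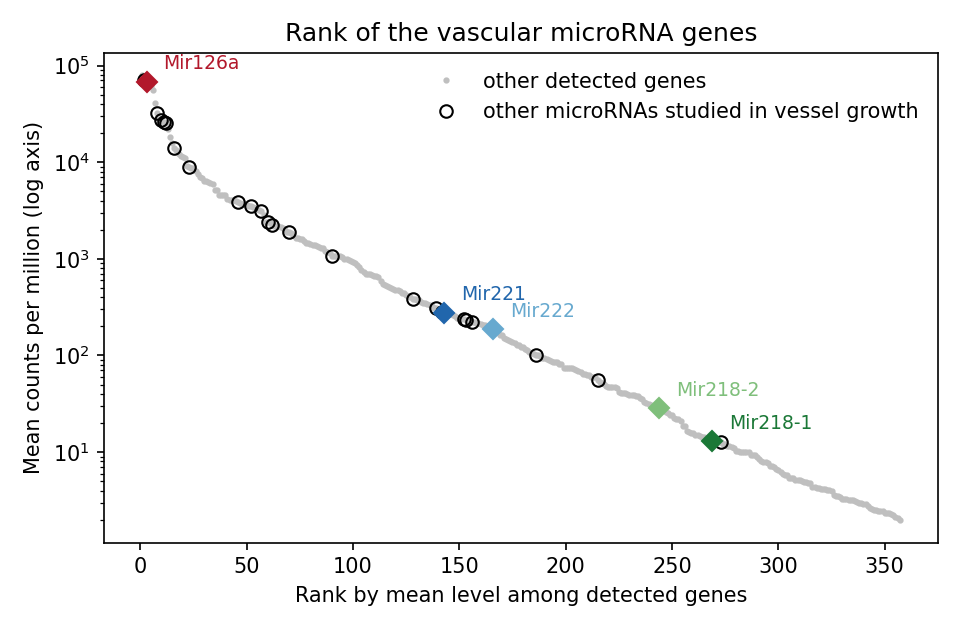
Rank of the 357 detected genes by mean level. The horizontal axis gives the rank and the vertical axis mean CPM on a log axis; coloured diamonds are the 5 genes, open circles the other microRNAs studied in vessel growth, and grey points all others. Mir126a stands at rank 3, Mir221 and Mir222 at ranks 143 and 166, and the Mir218 genes at ranks 244 and 269.

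By level over both libraries, the genes most like Mir221 were Mir132, also studied in vessel growth, at 281 ± 18.8 CPM and Mir450b at 282 ± 9.05 CPM, with mean log2 differences of 0.02 and 0.03. Those most like Mir222 were Mir667, at 189 ± 11.6 CPM, and Mir328, at 179 ± 1.87 CPM, with mean log2 differences of 0.02 and 0.05. Beside Mir218-2 stood Mir181b-1 (28.4 ± 3.92 CPM) and Mir302a (28.6 ± 3.16 CPM), and beside Mir218-1 stood Mir8112 (12.9 ± 1.62 CPM) and Mir5113 (12.8 ± 1.97 CPM) (SD, n = 2 for each). Of the 20 genes next above or below a member, 18 had ranges that overlapped that member's range, the exceptions being Mir143 and Mirlet7i beside Mir126a. These genes were picked for closeness of level in the same libraries, so such overlap is largely built in. With 2 libraries, likeness of level is all that can be measured.

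Replicates differed least for Mir126a and most for Mir218-2 among the 5 genes. Replicate 2 stood at 0.972 of replicate 1 for Mir126a (95% exact binomial interval 0.968 to 0.977), at 0.930 for Mir221 (0.868 to 0.997) and at 0.916 for Mir222 (0.842 to 0.997). It stood at 0.840 for Mir218-2 (0.674 to 1.05) and 1.06 for Mir218-1 (0.761 to 1.48). The interval lay below 1 for 3 of the 5 members and above 1 for none, beside 25.2% of detected genes below 1 and 19.6% above. These are differences between 2 libraries and not between conditions. The intervals of Mir221 and Mir222 included 1 with TMM or DESeq2 scaling or with Mir143 left out of the total. The median member differed by 1.08-fold between the libraries, and the median detected gene by 1.10-fold. The difference of Mir218-2 was larger than that of 72.0% of detected genes. For the other members this percentage ran from 17.1% for Mir126a to 48.2% for Mir222.

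**Figure D4:**
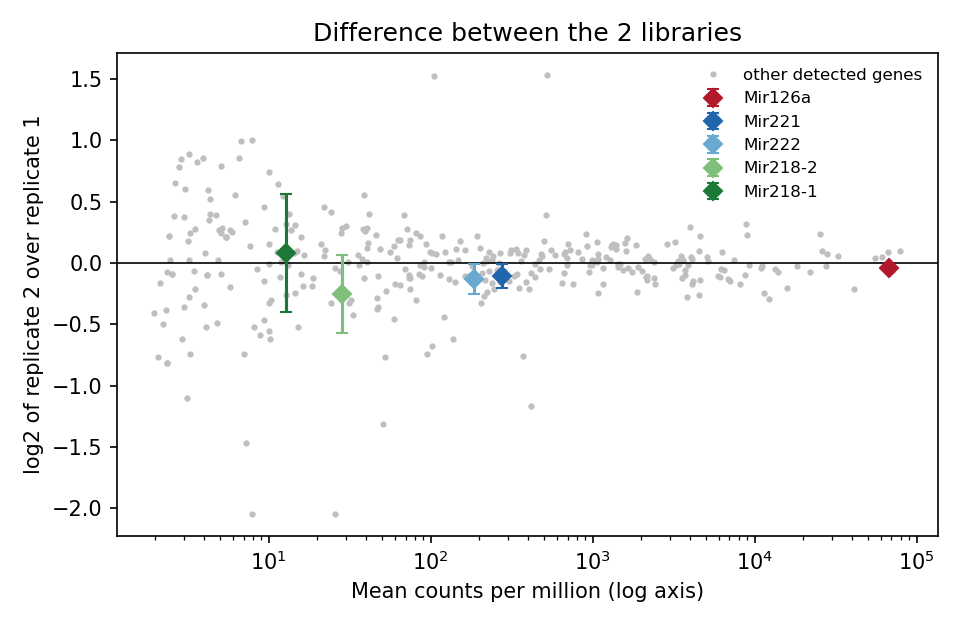
Difference between the libraries for each detected gene. The horizontal axis gives mean CPM on a log axis and the vertical axis the log2 ratio of replicate 2 over replicate 1; coloured diamonds are the 5 genes with 95% exact binomial intervals, and grey points are the other detected genes. The 5 genes lie between -0.25 and 0.08, and the intervals of the Mir218 genes cross 0.

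Markers of other cell types were counted in both pools. The smooth muscle and mesenchyme list (Mir143, Mir145a and Mir214) took 8.28% and 8.83% of the counts in replicates 1 and 2, and the epithelial miR-200 genes took 3.19% and 3.15%, with every member of both lists detected. The erythroid list took 0.0684% and 0.0833% and the leukocyte list 0.0850% and 0.0767%. The leukocyte share covers 3 of the 4 genes listed, as the other was not tabulated, and can therefore be too low. The neural list took 0.0286% and 0.0182%, with 2 of 7 tabulated members detected and 4 at 0 counts, and the striated muscle list 0.0928% and 0.124%, with 4 of 7 detected and 3 at 0. The genes at 0 are all numbered copies of a microRNA, and reads that fit several copies are assumed to be left out. Their 0 counts and the shares of these lists therefore cannot show that these microRNAs were scarce. The muscle sum hides opposite differences: Mir208a had 573 and 255 CPM in replicates 1 and 2, Mir208b 269 and 780 CPM, and Mir206 54.2 and 156 CPM. Mir218 is also known from motor neurons and heart. Replicate 2 was lower for Mir218-2, the neural list, its members Mir137 and Mir128-1, and Mir208a. It was higher for Mir218-1, the striated muscle list, Mir208b, Mir206, Mir499 and the neural gene Mir9-3, which was under 10 counts in replicate 1. The exact binomial interval of replicate 2 over replicate 1 included 1 for Mir218-2 (0.674 to 1.05) and for Mir218-1 (0.761 to 1.48). The directions of the Mir218 genes were therefore within counting error. The part of motor neurons and heart in the Mir218 counts was not tested.

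The hairpins of the 5 genes differ in predicted stability. The minimum free energy from RNAfold was -31.2 kcal/mol for the 73 nt of Mir126a, -42.8 for the 95 nt of Mir221 and -40.7 for the 79 nt of Mir222. It was -36.6 for Mir218-1 and -42.3 for Mir218-2, both 110 nt long. The most abundant gene of the 5 thus had the shortest hairpin and the smallest predicted energy in size, a description over 5 hairpins that differ in length. By percent of bases predicted to pair, Mir126a (74.0%) stood below Mir221 (80%) and above Mir222 (70.9%), Mir218-1 (63.6%) and Mir218-2 (61.8%).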

How the data were processed

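The authors deposited, for each library, a table of raw counts of reads by microRNA gene on the mm10 assembly with annotation M4, per the readme files. Which aligner and counting program were used is not given in the sources used here. The count columns hold reads on either strand, on the gene's annotated strand and opposite it; their totals served to tell them apart, and the annotated strand was used. Summary lines were kept out of the totals of 5354530 and 6489390 counts. GENCODE M21, made on the same assembly, gave names for 1894 of 1973 identifiers. CPM, means and SDs were computed in Python 3.11.15 with scipy 1.17.1, scaling alternatives with edgeR 4.0.16 and DESeq2 1.42.0, and hairpin energies with ViennaRNA 2.7.2. Genes were named as members, as annotated neighbours, as the 2 genes next above and next below each member in mean CPM, or as up to 4 of the highest of a list; other genes were named for a shared seed. Exact permutation tests compared members, and exact binomial intervals compared libraries. The interval procedure was tested on simulated counts that vary by counting error only. That test therefore cannot speak to further variation between real libraries. The members and lists were chosen with earlier results of these data known.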

Additional observations from a re-analysis of the deposited data

Results flagged for a closer look

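Reads on the strand opposite Mir126a, which no comparison above used, exceeded the limit that a count of 0 allows, 3 counts. There were 42 such reads in replicate 1 and 31 in replicate 2, or 7.84 and 4.78 CPM. They were 0.0114% (95% exact binomial interval 0.00820 to 0.0154) and 0.00713% (0.00484 to 0.0101) of the reads on both strands. Mir126b is annotated there, and its product miR-126b-5p lies opposite 19 of the 22 bases of miR-126a-3p. Its other product, miR-126b-3p, lies on the same strand as miR-126b-5p, and the counts do not separate the arms. Here miR-126b-5p is printed with its seed in capitals.
miR-126b-5p: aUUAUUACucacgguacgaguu
The other 4 members had 0 opposite-strand reads in both libraries. Of the 357 detected genes, 17 (4.76%) had opposite-strand reads in both libraries and 320 had none in either, and among the 10 most abundant genes Mir126a was the 1 gene with such reads in both. Whether these reads came from Mir126b was not tested.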

How the results depend on the processing

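The 5 log2 ratios between members kept their direction in all 25 recomputed values: without either replicate, without regard to strand, per precursor length, and under sign flips within libraries, which leave the values as they are. Ignoring strand also left the ratios without Mir126a as they were, and length left Mir218-2 over Mir218-1 as it was. Leaving out 1 replicate cannot reverse a ratio with the same sign in both libraries. The count of 25 therefore says little about how stable the ratios are. Leaving out 1 replicate moved Mir126a over Mir221 between 7.91 and 7.98, Mir221 over Mir222 between 0.56 and 0.58, and Mir218-2 over Mir218-1 between 0.97 and 1.30. The share of the 5 members was 6.65% without regard to strand, 7.43% with Mir143 left out of the total, and 4.14% with reads mapped to several places added to it, which enlarge the total by construction; that last setting changes every member's level by -39.6% to -39.5%. With a minimum of 100 counts 4 members were detected, and Mir218-1 was not. The log2 ratio of replicate 2 over 1 had an interval that included 0 for Mir221 at -0.10 (Mir143 left out), -0.10 (TMM) and -0.0883 (DESeq2), and for Mir222 at -0.12, -0.12 and -0.11; the change in library total is the only change in these settings. The other 14 recomputed replicate ratios kept direction and call. No paired analysis was possible because there is 1 group, so replicate numbers pair no samples between groups; ratios between members were taken within libraries. Depth limits the Mir218 genes most, with 67 to 168 counts.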
